A study of Mus musculus with 8 samples.

Results

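The HOX cluster genes of whole mammary tumours were compared between tumours with and without sequestered microRNA-21. Members were all rows of the count table whose Entrez identifier belonged to a mouse protein-coding gene named Hoxa, Hoxb, Hoxc or Hoxd with a number. This rule used no measured value and found 39 of the 27179 rows, and 28 of the 39 passed the filter on low counts. The tumours came from 4T1.13, a metastatic mouse mammary carcinoma line of BALB/c origin, injected into the mammary fat pad of female BALB/c mice aged 7 to 8 weeks. Each mouse received 100000 cells, and per the labels the tumours were recovered at day 14. The 4 miR-21-KD tumours grew from 4T1.13 cells carrying a lentiviral vector with the H1 promoter driving an RNA that sequesters mature miR-21. The 4 vector control (VC) tumours carried the same vector with a scrambled sequence, and both lines thus carried its mCherry reporter and hygromycin resistance gene. Each line was a pool of single-cell clones, so a difference between the groups cannot be told apart from a difference between the founding clones, and the hosts were immunocompetent with their own miR-21 gene. In such bulk tumours, fewer cells of a type and less RNA per cell cannot be told apart.

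HOX genes encode homeodomain transcription factors that set position along the body axis in the embryo. They lie in 4 clusters, and genes at the same relative place in different clusters are paralogs that share a group number. Within a cluster, low-numbered genes are used early and towards the head, and high-numbered genes late and towards the tail. Polycomb complexes keep the clusters silent, Trithorax complexes keep them active, retinoic acid can open them, and PBX and MEIS proteins bind DNA together with HOX proteins. Adult epithelium, fibroblasts and blood progenitors keep cell-type-specific HOX patterns, and the group 9 genes act together in the mammary gland during pregnancy.

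Total counts were 12134849 to 13592695 per tumour, so that 3 counts, the limit that a count of 0 allows for counting error, corresponded to 0.221 to 0.245 CPM (counts-per-million units). The Mir21a row held 0 counts in all 8 tumours. It therefore gave no check of the knockdown, which acts on the mature microRNA. Values are CPM scaled by TMM factors, and tests are edgeR's quasi-likelihood test with Benjamini-Hochberg adjustment over all 14382 genes tested. Here "called" means an adjusted p under 0.05. In this comparison 39.1% of all tested genes were called, with the miR-21-KD level higher for 19.6% and lower for 19.5%. The groups did not overlap, with all 4 miR-21-KD tumours higher, for 16.3% of genes, and with all 4 lower for 18.9%.

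The mature sequence of the sequestered microRNA is shown first, from RefSeq (GRCm38), because its seed is the part that pairs with target messages. It lies at chr11:86584120-86584141 on the minus strand, and capitals mark the seed, bases 2 to 8.
mmu-miR-21a-5p: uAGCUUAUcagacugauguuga
None of the 39 HOX genes had a match to this seed in its 3′ untranslated region in the annotation used, where a match was ATAAGCT or TAAGCTA on the message strand. Among 19266 protein-coding genes 1969, or 10.2%, had one. The median length of these regions was 960 bases for HOX genes and 859 bases for all.

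Promoter windows of 4 HOX genes are shown, chosen by their values or sequence. Hoxa5 had the largest fall, and Hoxa2 a fall beside a HOX-PBX type motif. Hoxa9 was not called within the same cluster, and Hoxb4 had the smallest adjusted p among the genes that rose. Each window is the 250 bases before the RefSeq start in GRCm38, read 5′ to 3′ on the gene's strand, and capitals mark TGATTNAT, a HOX-PBX type motif, on either strand.
Hoxa5, chr6:52204588-52204837, minus strand: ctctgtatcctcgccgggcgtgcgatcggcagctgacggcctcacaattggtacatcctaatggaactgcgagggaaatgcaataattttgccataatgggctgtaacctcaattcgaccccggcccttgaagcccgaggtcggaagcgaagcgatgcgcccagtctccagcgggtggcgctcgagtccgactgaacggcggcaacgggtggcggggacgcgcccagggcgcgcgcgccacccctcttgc
Hoxa2, chr6:52164832-52165081, minus strand: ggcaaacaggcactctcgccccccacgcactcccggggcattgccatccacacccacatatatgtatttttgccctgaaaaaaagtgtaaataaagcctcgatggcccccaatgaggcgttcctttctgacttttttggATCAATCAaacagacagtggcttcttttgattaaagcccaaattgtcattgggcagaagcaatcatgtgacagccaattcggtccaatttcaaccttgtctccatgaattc
Hoxa9, chr6:52227371-52227620, minus strand: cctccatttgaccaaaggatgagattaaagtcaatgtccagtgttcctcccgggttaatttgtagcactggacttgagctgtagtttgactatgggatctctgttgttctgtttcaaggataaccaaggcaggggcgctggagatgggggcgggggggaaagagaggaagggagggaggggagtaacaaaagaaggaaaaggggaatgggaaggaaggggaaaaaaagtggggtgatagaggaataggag
Hoxb4, chr11:96318017-96318266, plus strand: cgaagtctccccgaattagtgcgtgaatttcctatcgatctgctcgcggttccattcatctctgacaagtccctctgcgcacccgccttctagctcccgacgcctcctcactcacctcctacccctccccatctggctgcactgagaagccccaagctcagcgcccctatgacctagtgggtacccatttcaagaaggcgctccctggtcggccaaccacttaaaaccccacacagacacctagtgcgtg
The CpG count was 28 in the Hoxa5 window, 6 in the Hoxa2 window, 3 in the Hoxa9 window and 14 in the Hoxb4 window. Windows of 22 of the 39 HOX genes were matched, 24 windows in all, with a median of 12.5 CpG against 6.0 over 32851 windows of all genes. The motif TGATTNAT, searched on both strands, was in 2 HOX windows (8.3%), those of Hoxa2 and Hoxd11, against 2.8% of all windows. TATAAA on the gene's strand was in 1 HOX window (4.2%), that of Hoxd13, against 7.6% of all. The motifs were in different HOX windows, and a match is a description of the sequence only.

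Of the 28 tested HOX genes, 12 were called (42.9%, against 39.1% of all tested genes). The 7 that fell in miR-21-KD tumours were all of the HOXA cluster, among them Hoxa2, Hoxa3, Hoxa4, Hoxa5, Hoxa7 and Hoxa10. The 5 that rose were Hoxb2 and Hoxb4 of HOXB and Hoxc8, Hoxc9 and Hoxc10 of HOXC. No HOXD gene was called. The share that fell was 25.0% of the 28, against 19.5% of all tested genes, and the share that rose was 17.9%, against 19.6%. The median log2 fold change, miR-21-KD over VC, was -1.69 over 9 HOXA genes, 0.59 over 8 HOXB genes, 0.97 over 6 HOXC genes and 0.16 over 5 HOXD genes, and it was -0.01 over all tested genes. Whether the clusters differed from each other was not tested.

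**Figure D1:**
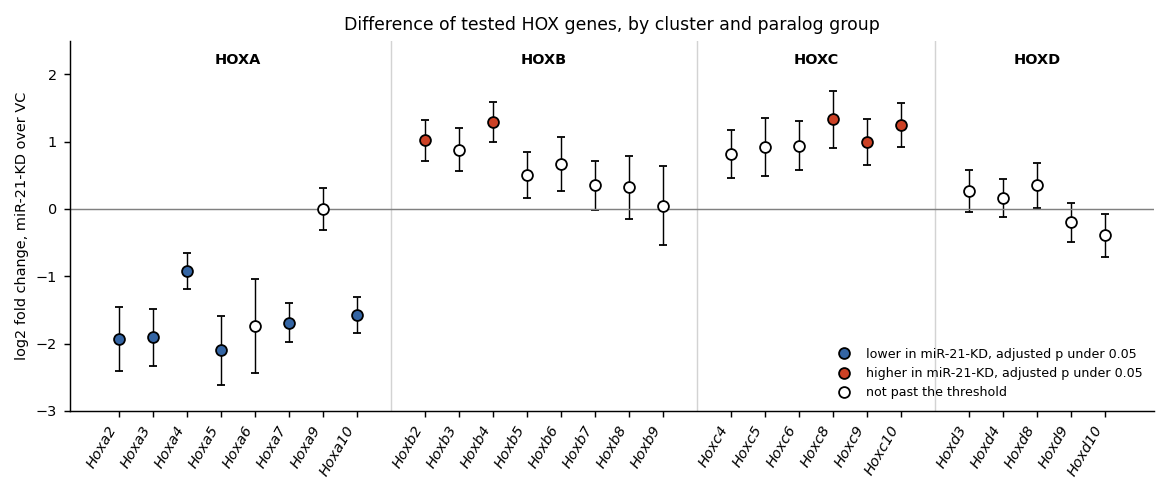
Log2 fold change of tested HOX genes, miR-21-KD over VC, with the standard error as the bar, ordered by cluster and then by paralog group. Filled points passed the threshold, those that fell all in HOXA and the 5 that rose in HOXB and HOXC. Hoxa9 lies at -0.00 between Hoxa7 and Hoxa10.

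The number called varied with the tumours kept. It was 6 without VC replicate 2, 6 without VC replicate 3 and 5 without miR-21-KD replicate 4. Calls over all genes fell too, from 5626 of 14382 tested to 3290 of 14642, 2936 of 14636 and 3366 of 14460 in these fits. For the HOX genes that rose the number was 1 without each of these 3 tumours and 2 without miR-21-KD replicate 1. For the HOX genes that fell it was 4 without miR-21-KD replicate 4. Hoxa3, Hoxa5, Hoxa7, Hoxa10 and Hoxb4 were called with any single tumour left out. With the replicate number as a block, 15 were called, Hoxa6, Hoxb3 and Hoxc6 being added. Over all 14382 genes tested, the block gave 6485 calls.

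HOXA lies on chromosome 6 of mm10 and has 11 members. Their summed level was 157, 228, 205 and 168 CPM in VC tumours 1 to 4 and 23.2, 96.7, 54.9 and 37.2 CPM in miR-21-KD tumours 1 to 4. The groups did not overlap, and the VC mean of 190 ± 33.1 CPM (SD, n = 4) was 3.58 times the miR-21-KD mean of 53.0 ± 31.9 CPM. HOXA supplied 77.8% of all HOX counts in VC tumours (mean of 70.8% to 84.5%) and 39.0% in miR-21-KD tumours (16.8% to 62.5%).

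Hoxa5, studied in breast epithelium as a regulator of p53, was the most abundant HOX gene. Its row (Entrez 15402, chr6:52201754-52204587, minus strand) held 76.8, 116, 105 and 89.7 CPM in VC tumours 1 to 4 and 6.06, 47.3, 22.2 and 15 CPM in miR-21-KD tumours 1 to 4. Every miR-21-KD tumour was below every VC tumour, and miR-21-KD tumours ranged more widely than VC tumours. The log2 fold change was -2.10 ± 0.51 (SE), with the VC level 4.28-fold higher and an adjusted p of 0.0151 by edgeR. It remained called without any single tumour, with adjusted p-values of 0.00217 to 0.0467. Hoxa5 alone gave 49.1% to 53.3% of HOXA counts in VC tumours and 26.1% to 48.9% in miR-21-KD tumours.

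Hoxa10, known for its part in the uterus and in blood cells, was the second most abundant HOX gene in CPM. Its level (Entrez 15395, chr6:52231197-52240854, minus strand) was 28.2, 40.0, 33.7 and 26.6 CPM in VC tumours and 7.44, 16.7, 11.0 and 7.83 CPM in miR-21-KD tumours. The groups were well apart, with a log2 fold change of -1.58 ± 0.27 and an edgeR adjusted p of 0.00672. Hoxa7, a trunk patterning gene (Entrez 15404, chr6:52215623-52218573, minus strand), stood at 7.30, 9.97, 9.30 and 6.70 CPM in VC tumours and at 1.78, 3.77, 3 and 1.72 CPM in miR-21-KD tumours. It too separated the groups, with a log2 fold change of -1.69 ± 0.29 and an edgeR adjusted p of 0.00679. These 2 genes were also the only HOX genes with an adjusted p under 0.01.

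Hoxa2 and Hoxa3 pattern the hindbrain and the structures of the head and throat, among them the thymus for Hoxa3. Hoxa2 (Entrez 15399, chr6:52162417-52164831, minus strand) was at 18.8, 27.6, 20.3 and 17.4 CPM in VC tumours and at 1.37, 9.98, 6.57 and 4.15 CPM in miR-21-KD tumours, a log2 fold change of -1.93 ± 0.48 with an edgeR adjusted p of 0.0164. Hoxa3 (Entrez 15400, chr6:52169059-52213067, minus strand) was at 10.8, 16.8, 19.5 and 13.9 CPM in VC tumours and at 1.29, 6.37, 5.44 and 3.05 CPM in miR-21-KD tumours, a log2 fold change of -1.91 ± 0.43 with an edgeR adjusted p of 0.0126. Neither gene overlapped between groups. The Hoxa2 call was lost without miR-21-KD replicate 4 (adjusted p = 0.0505).

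Hoxa4 (Entrez 15401, chr6:52189682-52191703, minus strand), expressed in the embryonic lung and spine, was low. It measured 1.99, 1.6, 1.89 and 1.8 CPM in VC tumours and 1.13, 1.26, 0.730 and 0.704 CPM in miR-21-KD tumours, from 9 to 27 counts a tumour. The groups did not overlap, with a log2 fold change of -0.92 ± 0.27 and an edgeR adjusted p of 0.0266. The call was lost without VC replicate 1 (adjusted p = 0.0547), 2 (0.0509) or 3 (0.0708) and without miR-21-KD replicate 3 (0.0736) or 4 (0.0749).

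The remaining tested HOXA genes, Hoxa6 and Hoxa9, were not called and are described because they sit among genes that fell, a choice made after their values were seen. Hoxa6 was at 2.88, 5.58, 4.41 and 3.11 CPM in VC tumours and at 0.0808, 3.07, 0.974 and 0.626 CPM in miR-21-KD tumours. Here miR-21-KD replicate 2 reached the range of the VC tumours, and the log2 fold change of -1.74 ± 0.70 had an edgeR adjusted p of 0.0769. The replicate block gave 0.0225, and leaving out miR-21-KD replicate 2 gave an adjusted p of 0.00745. Hoxa9, known from blood progenitors and leukaemia and from the mammary gland, was at 1.11, 0.957, 1.18 and 1.55 CPM in VC tumours and at 1.86, 0.943, 0.974 and 1.02 CPM in miR-21-KD tumours. The groups overlapped fully, at 12 to 23 counts a tumour. With 1 tumour left out the log2 fold change was -0.29 to 0.14. In the main fit it was -0.00, with a 95% interval of -0.61 to 0.61. That interval did not reach the log2 fold changes of the neighbours on either side, Hoxa7 and Hoxa10. Hoxa11 and Hoxa13, at the tail end of the cluster, had at most 4 counts in any tumour and were not tested.

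**Figure D2:**
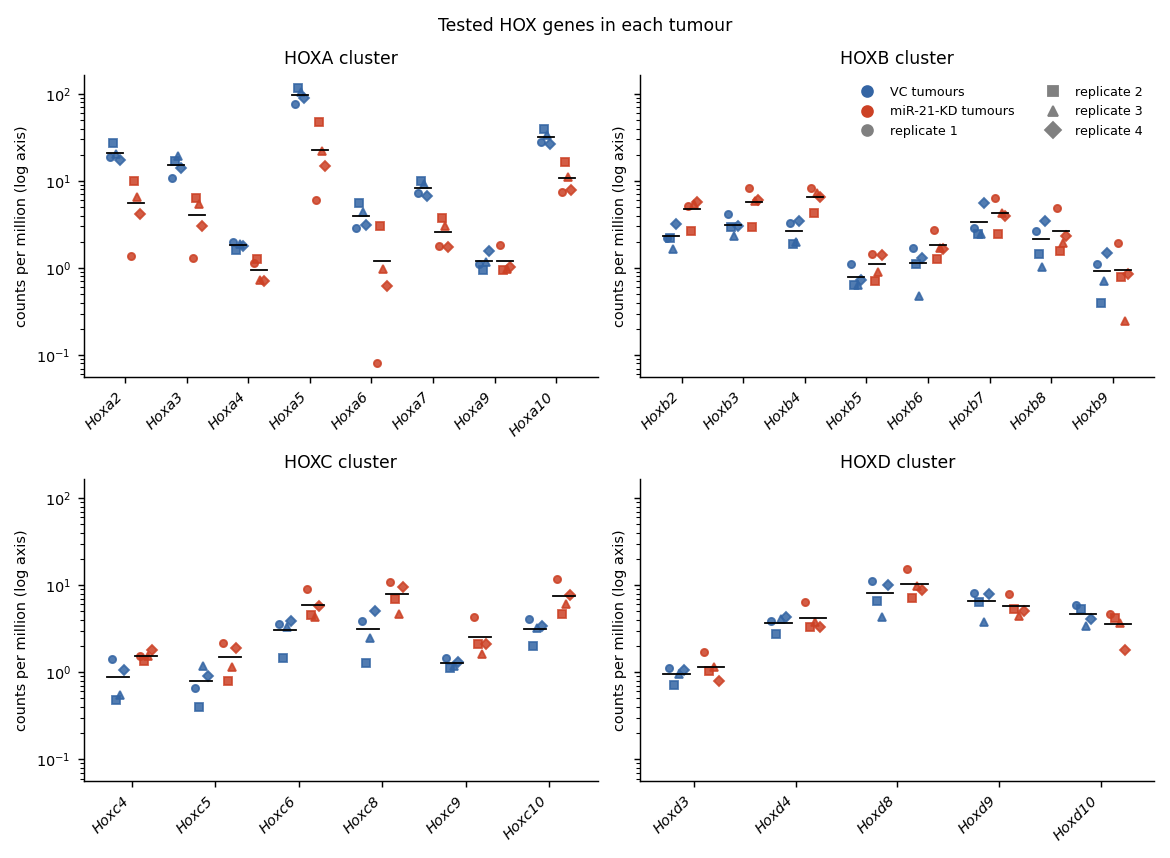
Level of tested HOX genes in each tumour, in CPM on a log axis, by cluster and paralog group. Colours give the group, symbols the replicate number and black bars the group means. Hoxa5 spans 6.06 to 116 CPM, and within HOXA, apart from Hoxa9, the highest miR-21-KD point is replicate 2 and the lowest replicate 1 or 4.

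Among the 4 VC tumours the HOXA sum was highest in replicate 2, then 3, 4 and 1, and the same order of numbers held among the 4 miR-21-KD tumours. The summed level of 12 fibroblast markers had the opposite order in each group. The leukocyte, skin keratinocyte and haematopoietic progenitor sums shared the fibroblast order among miR-21-KD tumours, and the adipocyte sum shared it among VC tumours. The fibroblast sum was 8510, 3280, 5030 and 6990 CPM in VC tumours 1 to 4 and 24600, 11000, 13000 and 14400 CPM in miR-21-KD tumours 1 to 4, and 10 of the 12 markers were called higher, with none lower, or 6 without VC replicate 3. Collagen genes, which tumour cells can also make, lead that sum. Of 12 mammary epithelial markers 10 were called higher and 1, Krt18, lower, and their sum overlapped between groups, at 1320 to 2290 CPM in VC tumours and 1170 to 2170 CPM in miR-21-KD tumours. Krt8 and Krt18, keratins of luminal cells, led that sum in VC tumours, at 808 ± 173 and 1020 ± 243 CPM against 439 ± 213 and 460 ± 216 CPM in miR-21-KD tumours, while the 10 called higher were the other markers. Without VC replicate 2 or 3 or miR-21-KD replicate 3 or 4 only 5 of these 10 were called, and 6 without miR-21-KD replicate 1. With the replicate number as a block Krt8 was also called lower (edgeR adjusted p = 0.0413). The Krt18 call was lost without VC replicate 1, 2 or 3 or miR-21-KD replicate 3 or 4 (adjusted p = 0.06 to 0.0941). All 12 epithelial and all 12 fibroblast markers were detected. Of all tested genes 19.6% were called higher and 19.5% lower.

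Markers of other cell types were also called, where 19.6% of all tested genes were called higher and 19.5% lower. Their summed levels did not overlap between groups for the adipocyte list, and overlapped for the leukocyte, progenitor, endothelial, muscle and keratinocyte lists. All 10 adipocyte markers were called higher, with sums of 133 to 480 CPM in VC tumours and 712 to 1940 CPM in miR-21-KD tumours. Of 12 leukocyte markers 6 were called higher and none lower (1540 to 3290 CPM against 2490 to 5330 CPM), or 3 without VC replicate 3, 9 without VC replicate 4 and 8 with the replicate block. Higher calls were also made for 3 of 8 haematopoietic progenitor markers (117 to 202 CPM against 182 to 360 CPM), with none lower. In the endothelial list 2 of 8 were called higher and none lower (443 to 752 CPM against 652 to 917 CPM). That was near the 19.6% of all tested genes, and the list had a median log2 fold change of 0.13. The progenitor count was 1, Flt3, without VC replicate 2 or 3 or miR-21-KD replicate 1, 3 or 4, and 5 without VC replicate 4 or with the replicate block. Of the endothelial calls the Tek call was lost without any single tumour other than VC replicate 1 and miR-21-KD replicate 2 (adjusted p = 0.0513 to 0.0964). With the block Tie1 was also called higher (0.0493) and Emcn lower (0.0256). Skeletal muscle markers summed to 6.70 to 11.7 CPM in VC tumours and 5.60 to 11.8 CPM in miR-21-KD tumours, with 1 higher and 1 lower of 3 tested, or 0 to 2 higher and 0 or 1 lower with 1 tumour left out, and none of either without miR-21-KD replicate 1. Skin keratinocyte markers summed to 2.92 to 29.1 CPM and 2.12 to 3.64 CPM, with Krt10 lower and Lce1a1 at 0 counts. The Krt10 call was lost without any of the 4 miR-21-KD tumours (adjusted p = 0.0542 to 0.0858). The part of cell mixture in the HOX differences was not tested.

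HOXB lies on chromosome 11 (chr11:96194316-96368254) and has 10 members. Their sum was 19.2, 13.2, 11.3 and 22.3 CPM in VC tumours 1 to 4 and 39.0, 16.7, 27.6 and 28.5 CPM in miR-21-KD tumours 1 to 4. The groups overlapped through miR-21-KD replicate 2, and the ratio of means, miR-21-KD over VC, was 1.69. All 8 tested members had a log2 fold change above 0, from 0.05 to 1.29. Of these, 2 were called higher (25.0%), near the 19.6% of all tested genes.

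Hoxb4, known for expanding blood stem cells (Entrez 15412, chr11:96318267-96321638, plus strand), was at 3.32, 1.91, 1.97 and 3.51 CPM in VC tumours and at 8.24, 4.24, 7.22 and 6.50 CPM in miR-21-KD tumours. It was the one HOXB gene whose groups did not overlap, and it rose with a log2 fold change of 1.29 ± 0.30 and an edgeR adjusted p of 0.0132. Hoxb2, a hindbrain gene (Entrez 103889, chr11:96351632-96354020, plus strand), was at 2.21, 2.23, 1.66 and 3.19 CPM in VC tumours and at 5.09, 2.67, 5.44 and 5.71 CPM in miR-21-KD tumours. Its groups overlapped in miR-21-KD replicate 2, and the log2 fold change was 1.02 ± 0.30 with an edgeR adjusted p of 0.0286. The Hoxb2 call was lost without VC replicate 1 (adjusted p = 0.0571), 2 (0.0718) or 3 (0.0816) and without miR-21-KD replicate 1 (0.0637), 3 (0.0728) or 4 (0.0777). Hoxb3, which acts with Hoxa3 in the throat, was at 4.20, 2.95, 2.36 and 3.02 CPM in VC tumours and at 8.24, 2.99, 5.84 and 6.03 CPM in miR-21-KD tumours. Only miR-21-KD replicate 2 lay within the VC range, and the log2 fold change of 0.88 ± 0.32 had an edgeR adjusted p of 0.057, or 0.0384 with the replicate block.

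An antisense gene, Hoxb3os, covers 58.5% of the exon bases of Hoxb2 and 63.9% of those of Hoxb3 in the annotation. The strand setting of the counting was not given in the sources used here, so reads of these genes and of Hoxb3os cannot be told apart. The same holds for the 28.8% of Hoxa7 and 25.5% of Hoxa3 exon bases that lie opposite antisense genes and for 16.0% of Hoxa4. The other HOXB genes, Hoxb5, Hoxb6, Hoxb7, Hoxb8 and Hoxb9, had log2 fold changes of 0.05 to 0.67 and overlapping groups, and none was called. Hoxb1 and Hoxb13 had 0 counts in every tumour.

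HOXC lies on chromosome 15 (chr15:102921131-103036856) and has 9 members. Their sum was 15.1, 6.78, 11.9 and 15.5 CPM in VC tumours 1 to 4 and 40.1, 20.4, 19.5 and 28.8 CPM in miR-21-KD tumours 1 to 4. The groups did not overlap, with means of 12.3 ± 4.04 and 27.2 ± 9.58 CPM (SD, n = 4 each). All 6 tested members had a log2 fold change above 0, from 0.82 to 1.33, and 3 were called.

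Hoxc10, a lumbar and hindlimb gene (Entrez 209448, chr15:102966796-102971898, plus strand), was at 4.06, 1.99, 3.23 and 3.35 CPM in VC tumours and at 11.7, 4.64, 6.01 and 7.67 CPM in miR-21-KD tumours. The groups did not overlap, with a log2 fold change of 1.25 ± 0.33 and an edgeR adjusted p of 0.0201. Hoxc8, a thoracic gene (Entrez 15426, chr15:102990539-102994275, plus strand), was at 3.91, 1.28, 2.44 and 4.99 CPM in VC tumours and at 10.8, 6.84, 4.63 and 9.55 CPM in miR-21-KD tumours. Here miR-21-KD replicate 3 lay just under VC replicate 4, and the log2 fold change was 1.33 ± 0.42 with an edgeR adjusted p of 0.037. Hoxc9, which acts in thoracic motor neurons (Entrez 15427, chr15:102977032-102984444, plus strand), was at 1.47, 1.12, 1.18 and 1.31 CPM in VC tumours and at 4.36, 2.12, 1.62 and 2.11 CPM in miR-21-KD tumours. Its groups did not overlap, and the log2 fold change was 1.00 ± 0.34 with an edgeR adjusted p of 0.0443.

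Each of the 3 HOXC calls was lost in some fits with 1 tumour left out. In those fits the log2 fold change was 0.95 to 1.41 for Hoxc10, 1.07 to 1.63 for Hoxc8 and 0.62 to 1.16 for Hoxc9 over all tumours left out in turn. The Hoxc10 call was lost without VC replicate 2 (adjusted p = 0.0528) or 3 (0.0546) or miR-21-KD replicate 4 (0.0505). The Hoxc8 call was lost without VC replicate 2 (0.067) or 3 (0.0986) or miR-21-KD replicate 1 (0.0912) or 4 (0.0897). The Hoxc9 call was lost without VC replicate 1 (0.061), 2 (0.108), 3 (0.108) or 4 (0.0735) or miR-21-KD replicate 1 (0.0961) or 4 (0.07), and with limma-voom (0.0631). Hoxc6, named after its values were seen, was at 3.61, 1.44, 3.31 and 3.92 CPM in VC tumours and at 8.97, 4.56, 4.30 and 5.79 CPM in miR-21-KD tumours. The groups did not overlap, yet the log2 fold change of 0.94 ± 0.36 had an edgeR adjusted p of 0.0641, or 0.030 with the replicate block. Hoxc4 and Hoxc5 had log2 fold changes of 0.82 and 0.92 with adjusted p-values of 0.0979 and 0.114. Hoxc12 had 0 counts in every tumour, and Hoxc11 and Hoxc13 had at most 5.

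HOXD lies on chromosome 2 (chr2:74668225-74765142) and has 9 members, 5 of them tested. The HOXD sum was 30.2, 21.9, 16.6 and 27.5 CPM in VC tumours 1 to 4 and 36.2, 20.9, 22.8 and 19.8 CPM in miR-21-KD tumours 1 to 4. The groups overlapped widely, and the ratio of means was 1.04. Hoxd8, a trunk gene, was the most abundant, at 11.3, 6.62, 4.33 and 10.1 CPM in VC tumours and 15.4, 7.07, 9.82 and 8.84 CPM in miR-21-KD tumours. Hoxd9, of the group that acts in the mammary gland, was at 8.04, 6.46, 3.78 and 8.01 CPM in VC tumours and 8, 5.27, 4.46 and 5.09 CPM in miR-21-KD tumours. Both genes overlapped between groups, with 95% intervals of the log2 fold change of -0.32 to 1.02 for Hoxd8 and -0.77 to 0.36 for Hoxd9. Hoxd3, Hoxd4 and Hoxd10 had log2 fold changes of 0.27, 0.16 and -0.39 and were not called. Of the exon bases of Hoxd3, 88.0% are shared with other genes on the same strand, among them Hoxd4, so its counts are uncertain. Hoxd1, Hoxd11, Hoxd12 and Hoxd13 had 0 counts in every tumour.

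**Figure D3:**
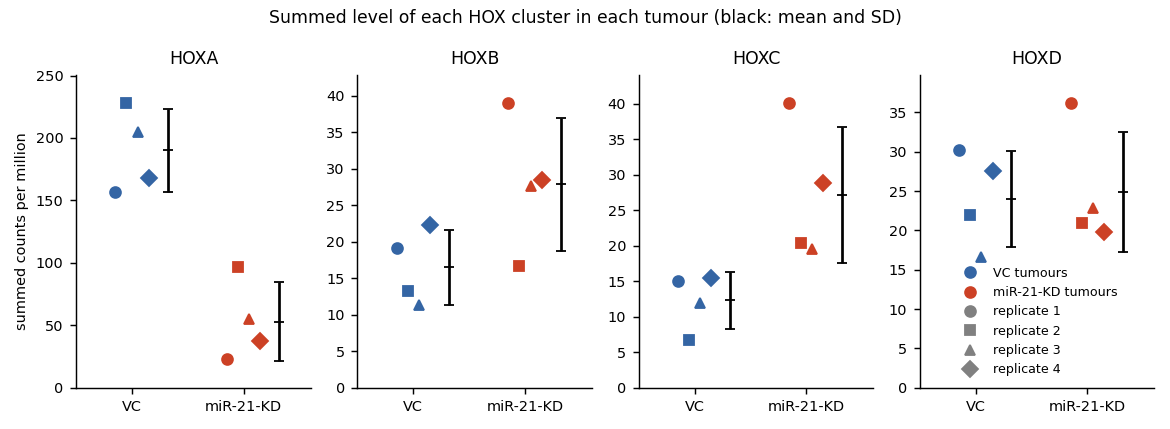
Summed CPM of each HOX cluster in each tumour, on linear axes from 0 that differ between panels, with the mean and SD in black. The HOXA sum is lower in all 4 miR-21-KD tumours (23.2 to 96.7 CPM against 157 to 228 CPM), the HOXC sum is higher in all 4, and the HOXB and HOXD sums overlap.

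Over all 4 clusters the HOX sum was 221, 270, 245 and 234 CPM in VC tumours 1 to 4 and 138, 155, 125 and 114 CPM in miR-21-KD tumours 1 to 4. The sum of miR-21-KD tumours was lower throughout, at 0.549 of the VC mean. Counts divided by exon length allow genes to be compared, here as CPM per kilobase of annotated exon. On this scale the 7 highest HOX genes of VC tumours were all HOXA genes, led by Hoxa5 (51.7), Hoxa2 (11.9) and Hoxa10 (10.2). In miR-21-KD tumours Hoxa5 remained highest (12.1), and the next were Hoxc8 (4.26), Hoxc10 (3.93), Hoxd8 (3.75) and Hoxc6 (3.74). Hoxa3 went from rank 4 to 16 and Hoxa7 from rank 6 to 19 of the 28.

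Paralogs were compared within each tumour as the log2 ratio of counts, with 0.5 added to each count, which does not depend on library scaling. There were 16 pairs of a tested HOXA gene with a tested paralog, in 8 paralog groups. For 12 pairs the ratio was lower in every miR-21-KD tumour than in every VC tumour, and for 4 pairs, Hoxa6 with Hoxb6, Hoxa7 with Hoxb7, and Hoxa9 with Hoxb9 and with Hoxd9, the groups overlapped. Pairs that share a gene are not independent, and no p was computed.

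In group 5, Hoxa5 over Hoxb5 was 6.07, 7.42, 7.30 and 6.85 in VC tumours and 2.03, 5.99, 4.57 and 3.38 in miR-21-KD tumours. The mean log2 ratio fell by 2.92 on this scale. In group 4, where both genes are low, Hoxa4 over Hoxb4 was -0.73, -0.26, -0.06 and -0.95 in VC tumours and -2.82, -1.72, -3.24 and -3.14 in miR-21-KD tumours, so Hoxb4 had more counts than Hoxa4 in all 8. In group 10, Hoxa10 over Hoxc10 was 2.78, 4.30, 3.36 and 2.97 in VC tumours and -0.65, 1.84, 0.87 and 0.03 in miR-21-KD tumours, below 0 in replicate 1 and near 0 in replicate 4. These are ratios of counts of genes of unequal length, so their sign does not order the levels of the genes. In group 9, Hoxa9 over Hoxd9 was -2.82, -2.70, -1.65 and -2.34 in VC tumours and -2.08, -2.43, -2.15 and -2.28 in miR-21-KD tumours. These last groups overlapped, and the mean log2 ratio differed by 0.14.

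**Figure D4:**
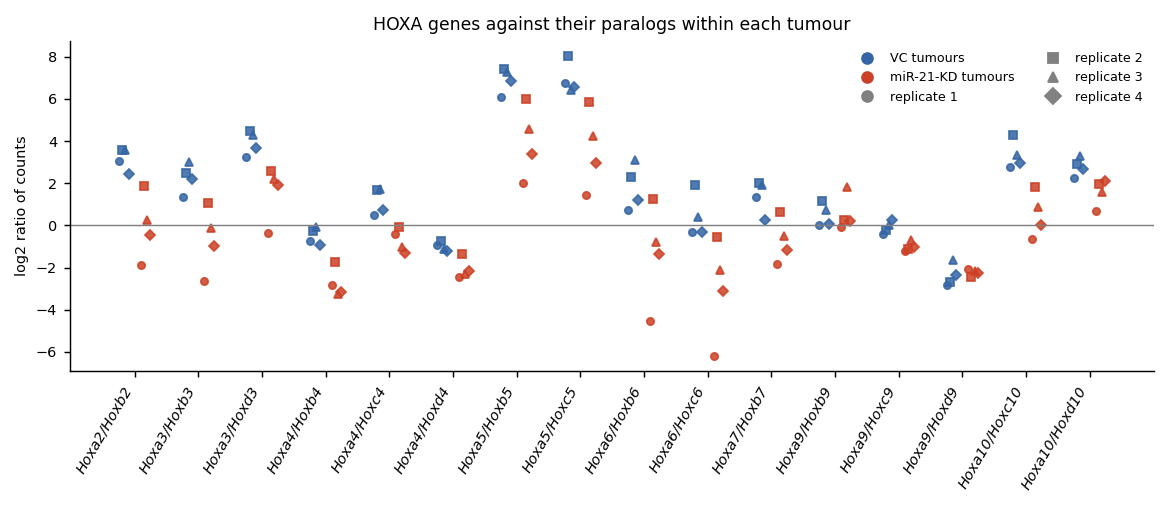
Log2 ratio of counts of each HOXA gene over a paralog in the same tumour, for 16 pairs in order of paralog group, with colours for the group and symbols for the replicate number. VC points lie above miR-21-KD points without overlap in 12 pairs, and overlap for Hoxa6 with Hoxb6, Hoxa7 with Hoxb7, and Hoxa9 with Hoxb9 and Hoxd9.

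By paralog group, the calls ran both ways in groups 2, 4 and 10. In group 2 Hoxa2 fell and Hoxb2 rose, in group 4 Hoxa4 fell and Hoxb4 rose with Hoxc4 and Hoxd4 not called, and in group 10 Hoxa10 fell and Hoxc10 rose with Hoxd10 not called. Groups 3, 5 and 7 held a fall of the HOXA gene and no other call. Groups 8 and 9 held a rise of the HOXC gene only, and group 6 held no call. No member of groups 11, 12 or 13 was tested.

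Genes beside the clusters were then read from the same fit, within 500 kb of each cluster, a distance chosen after the HOX values were seen. Beside HOXA, 3 neighbours were tested and none was called, although 1 was called lower without miR-21-KD replicate 2. They were Skap2 (log2 fold change -0.21 ± 0.07, edgeR adjusted p = 0.0519), Hibadh (-0.00 ± 0.08, 0.973) and Tax1bp1 (0.19 ± 0.09, 0.122). Within HOXA, both other genes tested fell. Mira, a long non-coding RNA between Hoxa6 and Hoxa7 (chr6:52214491-52215288), was at 13.3, 18.4, 15.3 and 15.2 CPM in VC tumours and 4.36, 8.10, 5.60 and 4.62 CPM in miR-21-KD tumours. The long non-coding RNA 5730596B20Rik (chr6:52177155-52180851) was at 2.14, 3.11, 3.31 and 2.37 CPM in VC tumours and 0.727, 0.865, 0.568 and 0.470 CPM in miR-21-KD tumours. Neither overlapped between groups, and the log2 fold changes were -1.45 ± 0.22 for Mira and -2.04 ± 0.28 for 5730596B20Rik, with edgeR adjusted p-values of 0.00571 and 0.00523. Both were called with any single tumour left out.

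Beside HOXB, 3 of 13 neighbours rose and 1 fell, and beside HOXC, 6 of 19 rose and 4 fell, where 19.6% of all tested genes rose and 19.5% fell. The HOXB rises numbered 1 without VC replicate 2 or 3 or miR-21-KD replicate 1 or 4, and the falls 3 without miR-21-KD replicate 2 or with the replicate block. Neither neighbour tested beside HOXD was called, or 1 as lower without miR-21-KD replicate 2. Skap1, a T-cell adaptor 96.3 kb from HOXB, rose with a log2 fold change of 1.23 ± 0.40 (edgeR adjusted p = 0.0401), a call lost without VC replicate 2 (0.0514) or 3 (0.098) or miR-21-KD replicate 1 (0.1), 2 (0.0526) or 4 (0.088). Nckap1l, a blood-cell gene 416.9 kb from HOXC, rose with a log2 fold change of 0.84 ± 0.18 (edgeR adjusted p = 0.0111). Cbx5, which encodes the heterochromatin protein HP1 alpha and lies 154.7 kb from HOXC, fell with a log2 fold change of -0.71 ± 0.14 (edgeR adjusted p = 0.00833). These 3 neighbours were named after their values were seen.

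**Figure D5:**
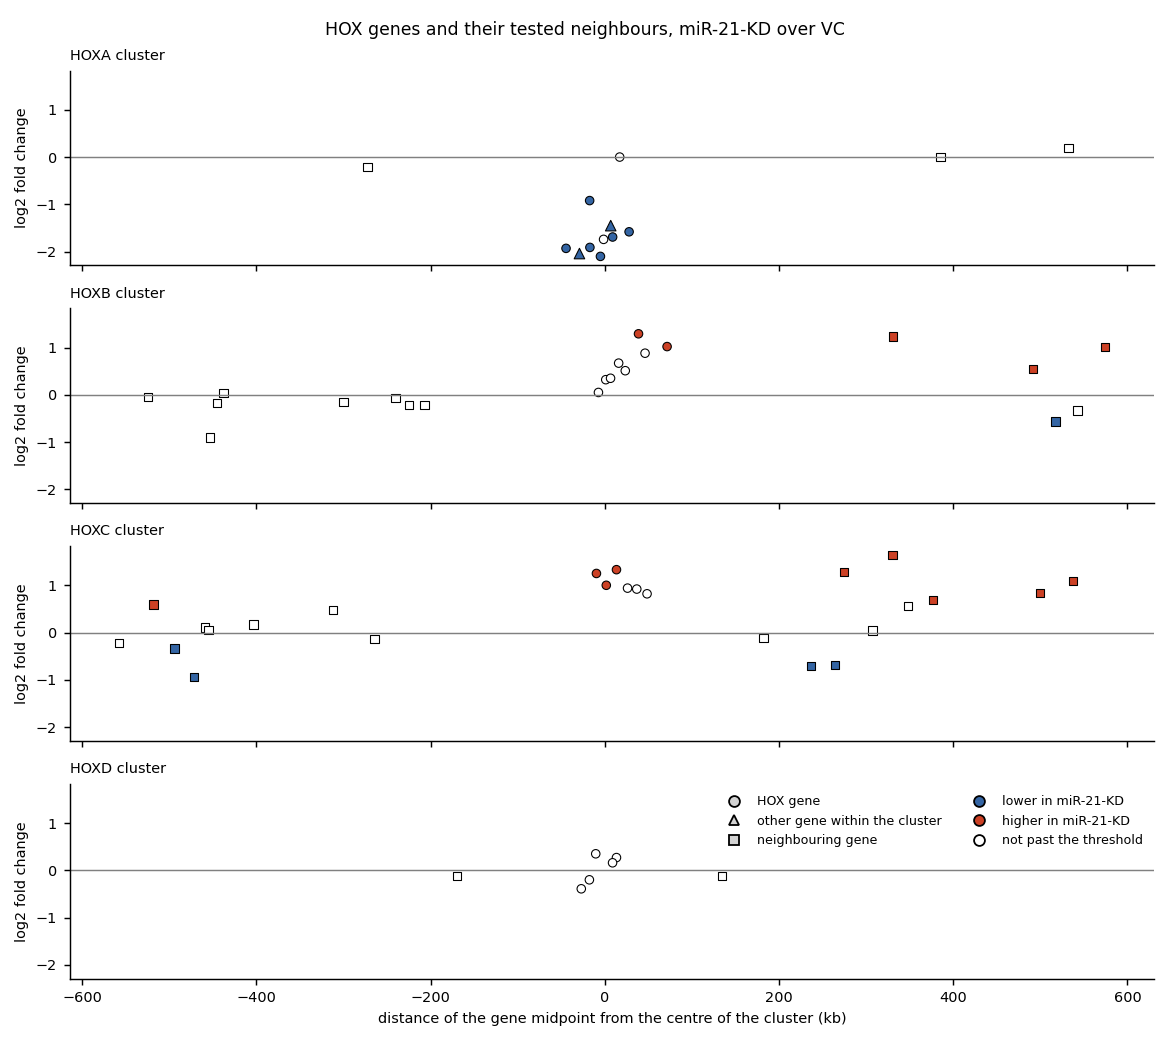
Log2 fold change, miR-21-KD over VC, of HOX genes (circles), other tested genes within a cluster (triangles) and tested neighbours within 500 kb (squares), by distance of the gene's midpoint from the cluster centre in kb. Filled points passed the threshold. In HOXA the lower points lie within the cluster and the 3 neighbours lie between -0.21 and 0.19, whereas HOXC has called neighbours on both sides.

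The partners of HOX proteins came next. Of 9 genes for the PBX, MEIS and PREP cofactors, 8 were tested, 3 fell and 1 rose, with a median log2 fold change of -0.33. Of all tested genes 19.5% fell and 19.6% rose. Pbx3 fell from 34 ± 5.25 to 13.3 ± 2.76 CPM (log2 fold change -1.35 ± 0.17, edgeR adjusted p = 0.00501), with no overlap between groups. Pbx2 rose from 55.8 ± 6.07 to 73.7 ± 7.53 CPM (0.40 ± 0.11, 0.0201), and its call was lost without VC replicate 2 (0.0616) or 3 (0.0623) or miR-21-KD replicate 4 (0.0571). Meis1, the partner best known from leukaemia, measured 27.9 ± 7.58 CPM in the VC group against 22.9 ± 5.50 CPM after knockdown and was not called (adjusted p = 0.362).

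Among 22 Polycomb genes, all tested, 8 fell and 1, Jarid2, rose, with a median of -0.25. The lower calls numbered 5 without VC replicate 2 or 3 or miR-21-KD replicate 1, 3 or 4, and 13 without miR-21-KD replicate 2. Phf19, an accessory subunit of Polycomb repressive complex 2, fell from 61.7 ± 8.95 to 14.3 ± 7.32 CPM (log2 fold change -2.11 ± 0.31, edgeR adjusted p = 0.00571). Cbx6, a chromodomain subunit of the other Polycomb complex, fell by 1.03 ± 0.15 on the log2 scale (0.00558), and Pcgf2, a RING-finger subunit, by 0.84 ± 0.18 (0.0112). The core subunits Ezh2, Eed and Suz12 were not called, with adjusted p-values of 0.0957, 0.148 and 0.258. Of 14 Trithorax and H3K27 demethylase genes 7 fell and 1, the demethylase Kdm6a, rose, again with a median of -0.25. Wdr5 (-0.53 ± 0.09, 0.00664) and Dpy30 (-0.65 ± 0.12, 0.00778), shared subunits of the H3K4 methyltransferases, and the methyltransferase Kmt2a (-0.49 ± 0.11, 0.011) fell. The Kdm6a call was lost without VC replicate 2 (0.0762), 3 (0.0959) or 4 (0.0647) or miR-21-KD replicate 1 (0.0695) or 3 (0.0624). Both chromatin lists held more falls than rises, where all tested genes were split between 19.5% lower and 19.6% higher.

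Retinoic acid genes ran the other way, with 6 of 13 tested higher, 2 lower and a median log2 fold change of 0.64. Of all tested genes 19.6% were higher and 19.5% lower. Aldh1a3, which makes retinoic acid, rose from 6.85 ± 4.29 to 67.1 ± 35.0 CPM (3.29 ± 0.55, edgeR adjusted p = 0.00663), and Aldh1a1, of the same family, rose from 0.948 ± 0.300 to 4.60 ± 2.05 CPM (2.27 ± 0.42, 0.00759). Cyp26b1, which breaks retinoic acid down, rose from 24.7 ± 10.7 to 94.3 ± 14.4 CPM (1.93 ± 0.28, 0.00558). All 3 were called with any single tumour left out. The 2 that fell were the receptor Rarg and the binding protein Crabp1. The Rarg call was lost without VC replicate 2 (0.0663) or 3 (0.072) or miR-21-KD replicate 1 (0.06) or 4 (0.0607), and the Crabp1 call without VC replicate 3 (0.054) or miR-21-KD replicate 4 (0.0534). Epithelium and stroma also express these enzymes, and the part of the cell mixture given above was not tested. Of the 8 cofactor, 22 Polycomb, 14 Trithorax and demethylase and 13 retinoic acid genes tested, 29 were called, or 18 without VC replicate 3. Of all tested genes 39.1% were called, and 2936 of 14636 without that tumour.

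The ParaHox genes and the Evx genes that flank HOXA and HOXD were nearly silent. None of these 8 was tested, 6 had 0 counts in every tumour, and the list summed to at most 0.0817 CPM. Of 19 listed non-coding RNAs of the HOX clusters 10 had a row in the count table, none passed the filter, and they summed to 0.409 to 1.25 CPM in VC tumours and 0.0812 to 0.707 CPM in miR-21-KD tumours. Mira and 5730596B20Rik were not on that list.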

How the data were processed

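Total RNA of 8 whole tumours, 4 VC and 4 miR-21-KD, was sequenced. The authors deposited 1 table of whole-number read counts per Entrez gene, not normalized. The submitters' processing notes name Subread, featureCounts, edgeR, limma and mm10, without versions, and the annotation and strand setting were not given in the sources used here. The labels give day 14, which was used, and the paper's methods another day. All 8 columns were used. Symbols were found for 25275 of 27179 identifiers (RefSeq, GRCm38.p6), and exon lengths and untranslated regions came from GENCODE M21 (GRCm38, equal to mm10).

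Counts were filtered with filterByExpr (minimum count 10, minimum total 15), scaled by TMM and tested with edgeR 4.0.16 (glmQLFit, robust, and glmQLFTest, group only), with Benjamini-Hochberg adjustment over 14382 genes. Standard errors were derived from the fold change and its F statistic, and intervals are 95% normal ones. The fit was tested on simulated data. Alternatives used DESeq2 1.42.0, limma 3.58.1, other scaling or filters, a block, and each tumour left out. Figures were drawn from the same values.

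Both groups number tumours 1 to 4. Deviations from group means correlated at 0.175 to 0.421 between same-numbered tumours and at -0.393 to 0.393 (mean -0.105) otherwise. Centring each group on its mean ties these correlations together, so the negative mean is not a separate contrast. Same-numbered tumours deviated together, without a stated paired design, but not always the most. VC replicate 3 correlated more with miR-21-KD replicate 2 (0.393) than with its replicate 3 (0.175). Likewise miR-21-KD replicate 1 correlated more with VC replicate 4 (0.334) than with VC replicate 1 (0.272). The tests reported have no block, and the blocked value is given where it changes the call of a named HOX gene. Replicate counts differed beyond sampling noise (chi-square per degree of freedom 12.6 to 70.7). The study calls the tumours of a group biological replicates, and p-values set the group difference against the spread between these tumours. The tumours of a group came from 1 pooled line, so p-values do not cover the spread between separately made lines.

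The members and gene lists were chosen with earlier results of these data known. Some genes are not reported here. Otherwise, values in every tumour were given for each called HOX gene and the 2 of highest mean CPM in each cluster, and up to 3 called genes with the smallest adjusted p were named from each partner list. Hoxa6, Hoxa9, Hoxc4 and Hoxc6 were added after their values were seen, as were Jarid2, Kdm6a, Rarg, Crabp1, Meis1, Ezh2, Eed and Suz12.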

Additional observations from a re-analysis of the deposited data

Results flagged for a closer look

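In 3 groups of 4 tumours, of 66 examined, 1 tumour lay far from the other 3, its gap to the nearest, as a share of the group's range, exceeding Dixon's 95% critical value. Chance flags about 1 in 20 such groups. Hoxa9 was at 1.86 CPM in miR-21-KD replicate 1 against 0.943, 0.974 and 1.02 CPM in the others. Hoxd4 was at 6.39 CPM in the same tumour against 3.29, 3.3 and 3.73 CPM. Hoxb7 was at 5.64 CPM in VC replicate 4 against 2.44, 2.47 and 2.88 CPM. None of these 3 genes was called.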

How the results depend on the processing

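The count of called HOX genes was 12 and stayed at 11 to 16 with DESeq2, other scaling or filters, limma-voom and the replicate block (15). At an adjusted p under 0.01 it was 2, both lower and 0 higher, and 9 partner genes were called rather than 29. Limma-voom with quality weights called 8 higher HOX genes, against 5. Leaving out each tumour gave 5 to 14 called HOX genes, 1 to 6 higher and 4 to 8 lower. It gave 18 (without VC replicate 3) to 37 called partner genes. Over all genes it gave 2936 (without VC replicate 3) to 6840 calls, and the other alternatives gave 5112 to 8202, against 5626. With other scaling or 1 tumour left out, the summed CPM of miR-21-KD over VC tumours was 0.203 to 0.332 for HOXA, 1.47 to 1.92 for HOXB, 1.86 to 2.41 for HOXC and 0.881 to 1.14 for HOXD. The HOXD ratio of 1.04 fell below 1 without miR-21-KD replicate 1 (0.881) or VC replicate 3 (0.94). Pairing by the replicate block added Hoxa6, Hoxb3 and Hoxc6 and changed no other HOX call. For the 12 called HOX genes, 156 of 191 alternative values kept the call and 35 lost it (32 by leaving out a tumour). For 7 named HOX genes that were not called, 16 of 110 alternative values gained a call. No call of these 19 genes reversed. Hoxc9 lost its call without the filter (adjusted p = 0.0646), with limma-voom (0.0631) and with its quality weights (0.0532). Scaling moved the median of all genes by at most 0.04 from 0 on the log2 scale. Depth limits Hoxa4 (9 to 27 counts a tumour), Hoxa6 (1 to 70), Hoxa9 (12 to 23) and Hoxc9 (14 to 54), among others.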
